A study of Mus musculus with 10 samples.

Results

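The collagen genes of the mouse paraventricular thalamus (PVT) were examined across the cell types of the region and across neurons of the PVT and its neighbours. They were taken as every gene symbol of the form Col, a number, a and a number in the count table with at least 20 UMIs (unique molecular identifiers, each a counted RNA molecule) over all nuclei. Of 33502 symbols, 44 met this rule, and their totals ran from 41 UMIs for Col6a5 to 68111 for Col25a1. Col25a1 alone held 53.3% of the 127697 collagen UMIs.

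Collagens are secreted or membrane-bound proteins in which 3 alpha chains wind into a triple helix, and each gene encodes 1 kind of chain. Fibrillar collagens form the tensile fibres of connective tissue, fibril-associated collagens decorate those fibres, and type IV collagens form the sheet of every basement membrane, including that of brain capillaries. In the brain, the fibres are mostly confined to the meninges and the walls of vessels, whereas single neurons and glia express a few collagens that act at synapses, on axons or as membrane proteins.

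The data were single-nucleus RNA-seq counts of 20503 nuclei from 10 libraries of tissue punches centred on the PVT of C57BL/6J mice aged 12 weeks, with 4 mice pooled per library. Libraries F1 to F6 were labelled female, and for M1 to M4 the labels gave no sex, while the deposited table of nuclei recorded them as male. Libraries held 875 to 7213 nuclei and 5119927 to 55956635 UMIs, and 46 of 20457 barcode sequences occurred in more than 1 library. The authors had assigned the nuclei to neurons (10410 nuclei), astrocytes (5302), oligodendrocytes (2462), microglia (993), oligodendrocyte precursor cells or OPCs (473), ependymal cells (469), endothelial cells (215) and fibroblasts (179). UMIs were summed per library and cell type, leaving out sums of under 10 nuclei, so that n below is the number of libraries with such a sum, and levels are given as UMIs per 1000000 UMIs of the sum (CPM) after TMM scaling, or without that scaling where called unscaled CPM. The fit also held a term for each library. A p-value therefore measures how far differences between types varied over libraries, each a pool of mice, and not the SD of levels.

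Each type carried its own defining markers. The summed level of 5 fibroblast markers (Cped1, Dcn, Slc6a13, Bnc2, Ranbp3l) was 669.7 to 9346 unscaled CPM in fibroblast sums and at most 651.8 in any other sum. However, mural cell markers (6 genes, among them Rgs5, Abcc9 and Notch3, all detected) reached 1412 to 2523 unscaled CPM in the same fibroblast sums and 455.8 to 6522 in the endothelial sums, and 5 astrocyte markers reached 857 to 1728 in the fibroblast sums. The fibroblast sum of library M4 stood apart: only 3 of its 18 nuclei, or 16.7%, were led by fibroblast markers, against 57.1% to 84% in the other 7 libraries with at least 10 fibroblast nuclei. Col1a1, Col6a2 and Col23a1 were at 0 in that sum, so values without it are also given for several fibroblast genes.

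Collagen genes were most often highest in the rarest cell type. By mean level, fibroblasts ranked highest for 19 of the 44 genes, ependymal cells and OPCs for 7 each, endothelial cells for 4, microglia, neurons and oligodendrocytes for 2 each, and astrocytes for 1. The share of all genes that ranked highest in each type was not computed. Some of these ranks rested on few UMIs in small sums, such as Col7a1, Col14a1 and Col5a1 with 5, 8 and 9 UMIs in fibroblasts. In the test across all genes, 25 of the 44 collagen genes passed the filter on low counts. Of these, 18 were called higher in fibroblasts than in the mean of the other types (adjusted p under 0.05 and log2 fold change over 0.5 in edgeR), where 10.7% of all genes were called higher. Without library M4 the count was 20, with 26 collagen genes tested. With each library left out in turn it ran from 14 to 20. The median log2 fold change in fibroblasts was 4.05 over the collagen genes and -0.25 over all genes tested. Because the types came from clustering on all genes, and a gene can pass the filter through the type in which it is high, these counts describe the types.

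Over all 8 types, 68 of 200 gene and type effects were called higher, beside 21.6% for all genes. Among the other types, ependymal cells had 10 collagen genes called higher (26.7% of all genes), neurons 11 (34.8%), astrocytes 9 (21.5%), OPCs 8 (20%), endothelial cells 7 (17.4%), oligodendrocytes 3 (20.5%) and microglia 2 (21.3%). Oligodendrocytes had 16 of 25 called lower, beside 26.2% of all genes, and microglia had 12, beside 29%. The highest type differed from the second highest in 21 of the 25 genes, with Col11a1, Col15a1, Col26a1 and Col9a3 as the exceptions. The 2 types were picked by these same levels, and between pairs of types 22.9% to 73.9% of all genes differed. The libraries of the highest and second highest type did not overlap for Col8a1, Col11a2, Col5a3 and Col9a2. The share of all genes without such overlap was not computed.

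**Figure D1:**
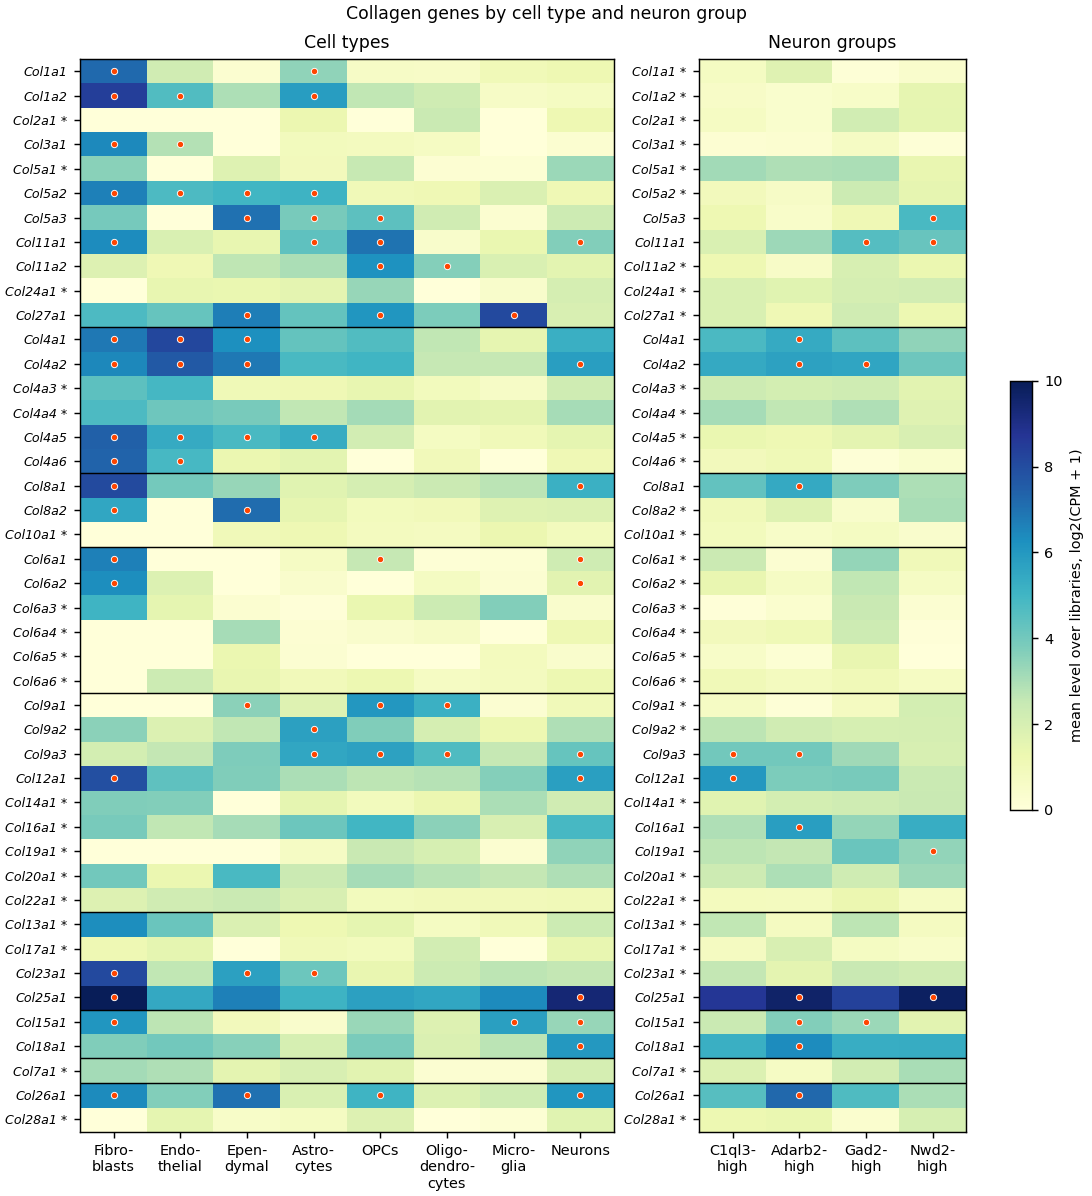
Level of each of the 44 collagen genes (rows, grouped by class) in 8 cell types and 4 neuron groups (columns), as the mean over libraries on a log scale of CPM. Orange dots mark genes called higher in that column, and asterisks mark genes that did not pass the filter on low counts. The fibroblast column carries 18 dots, and Col25a1 is high in both fibroblasts and neurons.

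Of the 11 fibrillar genes, 8 passed the filter. In fibroblasts 5 of them were called higher (10.7% of all genes), and in astrocytes also 5 (21.5%). Col1a1 and Col1a2 encode the chains of type I collagen, the main fibre of connective tissue. Col1a2 in fibroblasts ran from 17.6 through a median of 320.0 to 662 CPM (mean 340.1 ± 189, SD, n = 8), and its log2 fold change against the other types was 5.86 ± 0.26 (SE; adjusted p = 5.8e-32). Col1a1 ran from 0 through 162 to 274 CPM (log2 fold change 6.97 ± 0.36). In both cases the lowest fibroblast library was M4, without which the means were 386 ± 147 and 169 ± 85.8 CPM (n = 7).

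Astrocytes held lower but regular amounts of type I collagen RNA. Col1a2 in astrocytes ran from 39.3 through 59.6 to 70.9 CPM (log2 fold change 2.99 ± 0.20), and 7 of 10 libraries lay above the mean of the other types. Col1a1 in astrocytes reached only 10.1 ± 4.45 CPM (n = 10). It was called higher (log2 fold change 2.63 ± 0.35), since the fit compares mean logarithms, but lay above the plain mean of the other types in 2 of 10 libraries, so the direction depends on the scale. The astrocyte sums held 113 to 165 unscaled CPM of the 5 fibroblast markers. Most of this was Cped1 and Ranbp3l (80.0 and 52.1 unscaled CPM, pooled over libraries). Dcn, Slc6a13 and Bnc2 were at 0.408, 0.525 and 3.03 in astrocytes, against 835, 397 and 1568 in fibroblasts. The part of RNA from other nuclei in these astrocyte values was not tested.

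Col3a1, the chain of the type III collagen of vessel walls and loose connective tissue, was close to absent outside fibroblasts. In fibroblasts it ran from 26.4 through 78.4 to 215 CPM (log2 fold change 7.93 ± 0.48). In endothelial cells 5 of 7 libraries were at 0, and the call there (log2 fold change 2.93 ± 0.98, adjusted p = 0.0134) rested on a single library above the other types. Without library F6 the endothelial value was 1.40 with an adjusted p of 0.391. Col5a2, a minor chain of mixed fibrils, was higher in fibroblasts (52.8 to 159.8, median 92.7 CPM), astrocytes (33.1 ± 11.8 CPM, 2.44 ± 0.22) and ependymal cells (30.6 ± 14.6 CPM, 2.23 ± 0.32).

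The other 4 fibrillar chains past the filter, Col5a3, Col11a1, Col11a2 and Col27a1, were highest outside fibroblasts. Col5a3, a further type V chain, ran in ependymal cells from 58.8 through 132 to 322 CPM (mean 129.6 ± 83.3, n = 9; log2 fold change 5.25 ± 0.27), where all 9 libraries exceeded those of OPCs (20.8 ± 9.64 CPM, called higher with 2.52 ± 0.48). Col11a1 and Col11a2, type XI chains known from cartilage, were highest in OPCs, the dividing progenitors of oligodendrocytes. Col11a2 in OPCs ran from 40.1 through 61.8 to 117 CPM (mean 72.3 ± 28.6, n = 9; log2 fold change 4.44 ± 0.26), above every oligodendrocyte library (4.08 to 17.2 CPM; 1.35 ± 0.32). Col11a1 in OPCs ran from 48.1 through 129 to 205 CPM (4.42 ± 0.23), and its difference from fibroblasts (81.4 ± 55.9 CPM) was 0.60 ± 0.31 on the log2 scale (adjusted p = 0.138).

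Col27a1, a fibrillar collagen best known from developing cartilage, was the leading collagen of microglia, the resident immune cells of the brain. It ran there from 183 through 268 to 371 CPM (mean 275 ± 54.4, n = 10), and its log2 fold change was 3.67 ± 0.13 (adjusted p = 2.02e-39). Neurons lay at 2.81 ± 0.975 CPM, and the next highest type, ependymal cells, at 102 ± 77.6 CPM, a difference of 1.54 ± 0.18 on the log2 scale from microglia (adjusted p = 3.08e-12). All 10 microglial libraries exceeded the mean of the other types, although the highest ependymal library (285 CPM) overlapped them.

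Fibril-associated collagens (9 genes, 4 past the filter) were spread over more types. Col12a1, which binds the surface of type I fibres, ran in fibroblasts from 35.2 through 279.8 to 356 CPM (mean 241 ± 117, n = 8; log2 fold change 4.47 ± 0.29). Neurons held the next highest level, from 22.1 through 50.1 to 95.1 CPM (mean 52.8 ± 22.3, n = 10; 1.85 ± 0.18), and every other type had a lower mean. The lowest fibroblast library, again M4, overlapped the neurons, and the other 7 (143 CPM and up) did not. The difference between fibroblasts and neurons was 2.29 ± 0.27 on the log2 scale (adjusted p = 5.61e-11).

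The 3 chains of type IX collagen, which bridges fibrils in cartilage and the eye, each had their highest mean level in a glial type. Col9a1 was highest in OPCs (13.7 to 89.1, median 72.6 CPM; log2 fold change 5.79 ± 0.34), followed by oligodendrocytes (35.6 ± 13.4 CPM, 4.70 ± 0.35) and ependymal cells (10.5 ± 6.07 CPM, 3.01 ± 0.60). Col9a2 was highest in astrocytes, from 32.6 through 49.8 to 73.3 CPM (3.18 ± 0.19), above every OPC library. Col9a3 was called higher in OPCs (50.0 ± 20.1 CPM, 2.38 ± 0.26), astrocytes (45.0 ± 13.5 CPM) and oligodendrocytes (25.0 ± 12.4 CPM, 1.23 ± 0.25), and its levels in OPCs and astrocytes overlapped (difference 0.21 ± 0.21, adjusted p = 0.468). In neurons 2 of the 4 fibril-associated genes past the filter were called higher (34.8% of all genes), Col12a1 and a type IX chain. By number, neurons held 1745 of the 2640 Col9a3 UMIs.

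**Figure D2:**
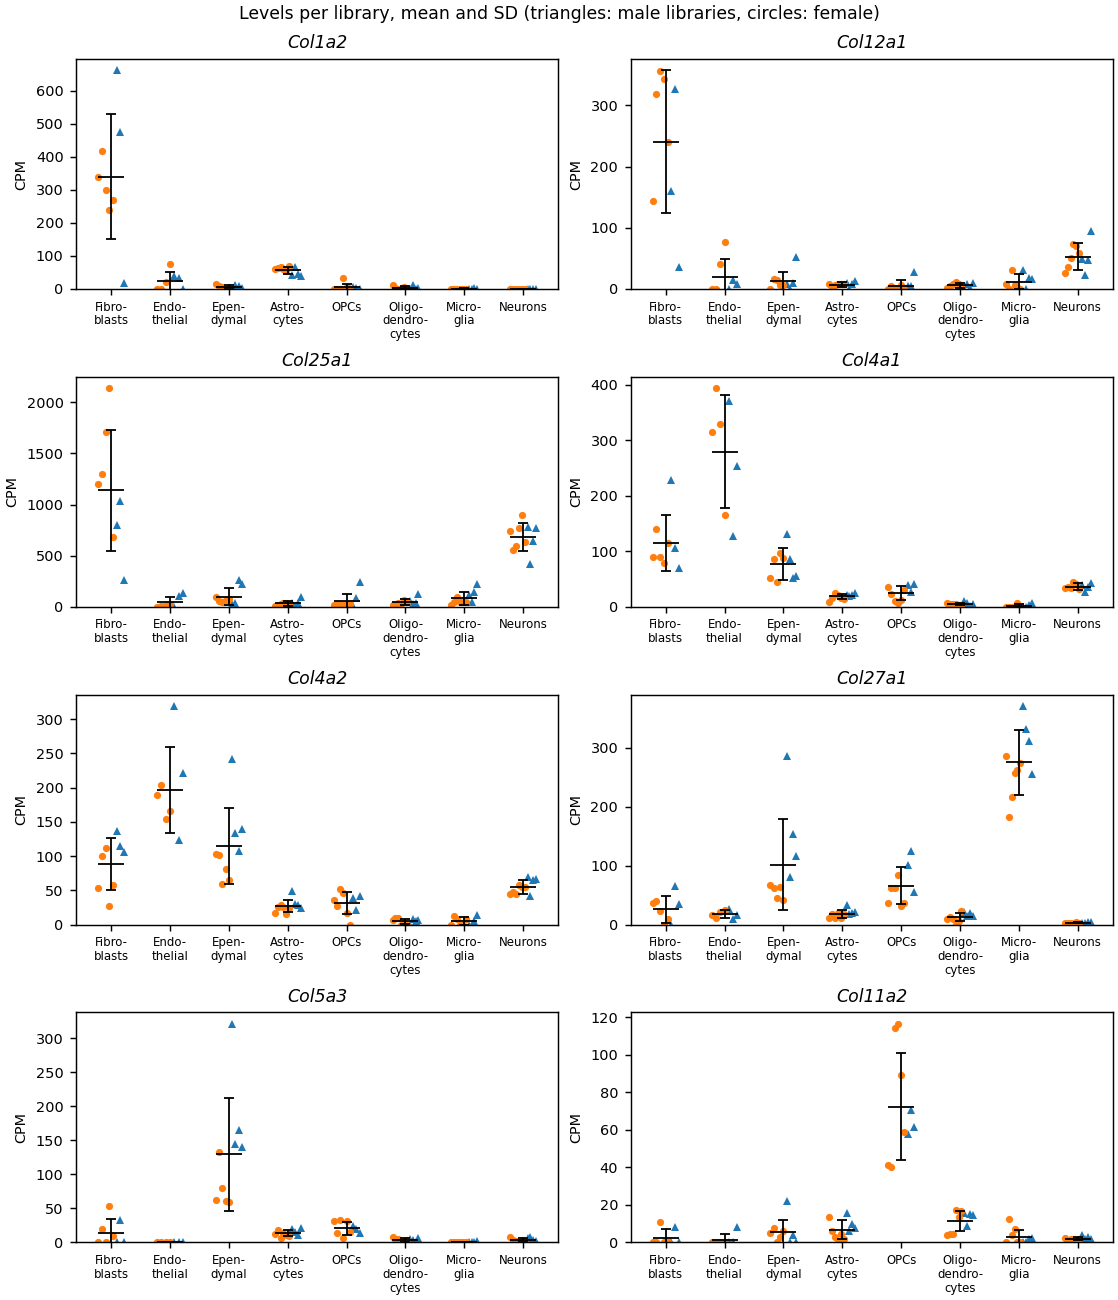
Level in CPM (linear axis) of Col1a2, Col12a1, Col25a1, Col4a1, Col4a2, Col27a1, Col5a3 and Col11a2 in the 8 cell types. Each point is the sum of 1 library and each bar the mean with SD. Col4a1 and Col4a2 peak in endothelial cells, Col27a1 in microglia (183 to 371 CPM), Col5a3 in ependymal cells and Col11a2 in OPCs.

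The basement membrane chains (6 genes, 4 past the filter) were called higher in endothelial cells and fibroblasts, 4 of 4 in each. Ependymal cells had 3 of the 4 called higher, and astrocytes and neurons 1 each. Of all genes, 17.4% were called higher in endothelial cells, 10.7% in fibroblasts, 26.7% in ependymal cells, 21.5% in astrocytes and 34.8% in neurons. Col4a1 and Col4a2 encode the chains of the common type IV network around vessels. In endothelial cells Col4a1 ran from 128 through 315 to 395 CPM (mean 279.7 ± 102, n = 7; log2 fold change 3.59 ± 0.19) and Col4a2 from 123 through 189 to 319.9 CPM (mean 197 ± 63.2; 2.67 ± 0.21). Fibroblasts held 115 ± 50.8 CPM of Col4a1, a difference of 1.20 ± 0.26 on the log2 scale from endothelial cells (adjusted p = 2.37e-04). Ependymal cells held 115 ± 54.9 CPM of Col4a2, a difference of 0.74 ± 0.22 (adjusted p = 0.00369). Among 202 nuclei of the endothelial type led by endothelial markers, the pooled Col4a1 level was 315 unscaled CPM. It was 59.6 in 5 nuclei of that type led by mural markers, which held only 33539 UMIs of all genes. So few nuclei cannot show how far mural RNA added to the endothelial level. In the fibroblast type, 35 nuclei led by mural markers held 20 Col4a1 UMIs among 90799 UMIs of all genes.

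Col4a5 and Col4a6, chains of a second network found in smooth muscle and some epithelia, were highest in fibroblasts. Col4a6 ran there from 26.4 through 144 to 358 CPM (log2 fold change 7.93 ± 0.43) and Col4a5 from 35.2 through 118 to 458 CPM (4.96 ± 0.34). Endothelial sums held 28.2 ± 26.7 CPM of Col4a6 (4.23 ± 0.74, 2 of 7 libraries at 0) and 40.3 ± 46.9 CPM of Col4a5 (1.99 ± 0.52). That Col4a5 call was lost without F6 (1.34, adjusted p = 0.0905). It was kept in 16 of 20 alternatives, with log2 fold changes down to 0.279. The endothelial Col4a6 call was kept in 17 of 20. In astrocytes Col4a5 was higher at 39.0 ± 11.9 CPM (2.34 ± 0.24).

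Both of these chain pairs lie head to head in the genome. Col4a1 (chr8:11198423-11312826, minus strand) and Col4a2 (chr8:11312805-11449287, plus strand) start within one shared region, and Col4a6 (chrX:141165403-141474076, minus strand) and Col4a5 (chrX:141475385-141689234, plus strand) start on either side of a short gap (GRCm38). Col4a1 also overlaps the antisense gene Gm15418, which had 3327 UMIs of its own. Over the 73 sums of library and cell type, the log2(CPM + 1) levels correlated with r = 0.83 for Col4a1 and Col4a2 and 0.68 for Col4a5 and Col4a6, where the median over all 946 pairs of collagen genes was 0.095. These points share libraries and types, so the correlations are a description. Chains that lie apart in the genome also moved together, with r = 0.76 for Col1a1 and Col1a2, which lie on different chromosomes, whereas Col5a1 and Col5a2 had r = 0.019. A further type IV pair, Col4a4 (chr1:82448423-82586849, minus strand) and Col4a3 (chr1:82586921-82722059, plus strand), is head to head too. Its r was only 0.30, from totals of 820 and 369 UMIs.

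The promoter windows of Col4a1, Col4a2, Col4a6 and Col4a5 (RefSeq, GRCm38.p6, 250 bases before to 50 after each start, written 5′ to 3′ on the gene's own strand) are shown because the genes of each pair start close together. Capitals mark GGGCGG, the core of a GC box, or its reverse CCGCCC, and CCAAT or its reverse ATTGG, and no marked letters overlap. The windows are chr8:11312777-11313076 for Col4a1, chr8:11312555-11312854 for Col4a2, chrX:141474027-141474326 for Col4a6 and chrX:141475169-141475468 for Col4a5.
Col4a1: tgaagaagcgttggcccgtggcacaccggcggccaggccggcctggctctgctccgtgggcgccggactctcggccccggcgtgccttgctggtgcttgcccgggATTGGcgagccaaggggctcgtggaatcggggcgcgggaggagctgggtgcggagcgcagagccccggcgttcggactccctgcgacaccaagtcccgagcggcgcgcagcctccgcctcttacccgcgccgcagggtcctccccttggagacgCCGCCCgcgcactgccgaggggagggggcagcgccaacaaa
Col4a2: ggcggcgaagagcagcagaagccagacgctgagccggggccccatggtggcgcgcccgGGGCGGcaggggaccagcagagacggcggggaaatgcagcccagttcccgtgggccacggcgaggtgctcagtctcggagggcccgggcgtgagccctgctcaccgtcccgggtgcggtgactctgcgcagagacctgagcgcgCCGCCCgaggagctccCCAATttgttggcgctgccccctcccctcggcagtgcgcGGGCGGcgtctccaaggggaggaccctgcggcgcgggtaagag
Col4a6: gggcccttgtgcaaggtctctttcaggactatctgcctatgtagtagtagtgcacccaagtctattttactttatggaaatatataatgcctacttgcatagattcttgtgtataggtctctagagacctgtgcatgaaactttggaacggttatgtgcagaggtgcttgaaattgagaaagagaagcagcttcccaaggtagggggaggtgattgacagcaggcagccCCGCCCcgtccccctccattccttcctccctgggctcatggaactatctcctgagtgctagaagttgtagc
Col4a5: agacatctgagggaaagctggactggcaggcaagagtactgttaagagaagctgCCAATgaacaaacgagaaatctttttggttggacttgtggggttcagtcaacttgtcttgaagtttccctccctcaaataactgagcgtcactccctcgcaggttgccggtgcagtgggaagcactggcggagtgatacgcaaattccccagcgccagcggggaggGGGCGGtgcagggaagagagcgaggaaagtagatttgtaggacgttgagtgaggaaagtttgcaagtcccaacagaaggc
The Col4a1 and Col4a2 windows shared 78 bases, read on opposite strands, and the Col4a6 and Col4a5 windows lay 842 bases apart. GGGCGG on either strand occurred once in the Col4a1, Col4a6 and Col4a5 windows and 3 times in that of Col4a2, whereas CCAAT on either strand was found in all but that of Col4a6. Of the 35 collagen genes with a window in the table, 62.9% held GGGCGG and 34.3% held CCAAT, beside 35.7% and 37.4% of all 32851 windows. The genes without an entry were Col1a1, Col2a1, Col4a3, Col5a2, Col9a3, Col12a1, Col14a1, Col22a1 and Col26a1.

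**Figure D3:**
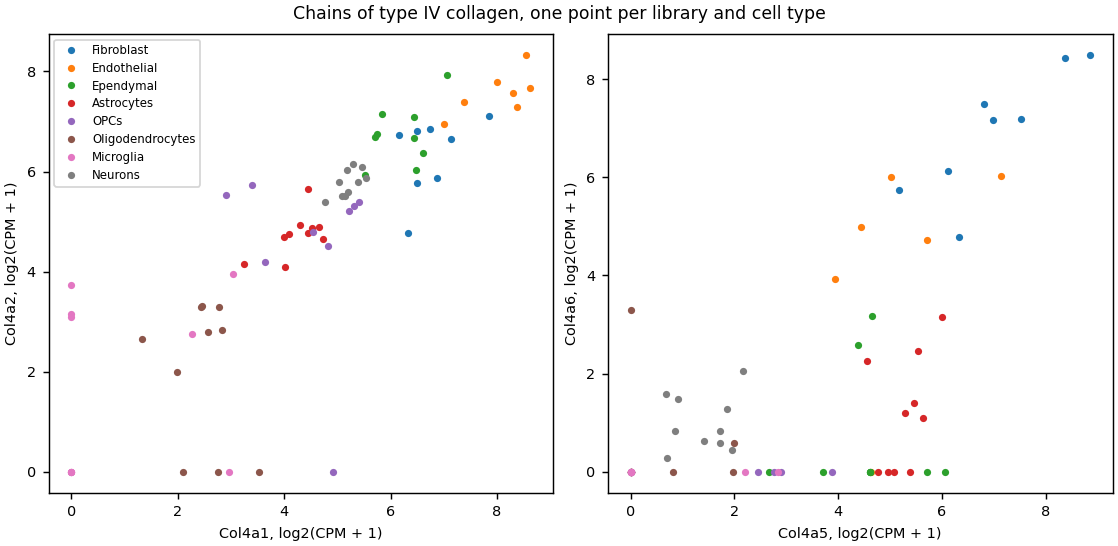
Levels in CPM (log axes) of Col4a2 against Col4a1 and of Col4a6 against Col4a5, each point the sum of 1 library and cell type, coloured by type. Endothelial sums lie at the upper end for Col4a1 and Col4a2 and fibroblast sums at the upper end for Col4a5 and Col4a6, with r of 0.83 and 0.68 over 73 sums.

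The multiplexins Col15a1 and Col18a1 encode basement-membrane proteoglycans whose ends can be released as anti-angiogenic fragments. Col15a1 was highest in fibroblasts (22.2 to 159, median 53.2 CPM; log2 fold change 3.91 ± 0.40) and microglia (36.7 to 92.9, median 53.7 CPM; adjusted p = 2.63e-21). All libraries of both types exceeded the mean of the rest, and the difference between them was 0.36 ± 0.35 (adjusted p = 0.474). Col18a1 was highest in neurons, from 47.8 through 66.5 to 72.5 CPM (mean 62.6 ± 9.02, n = 10; 3.03 ± 0.16). Col15a1 was called higher in neurons too. Col18a1 shares part of its locus, on the other strand, with Slc19a1 (1212 UMIs).

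The short-chain network genes Col8a1 and Col8a2 encode the hexagonal lattice of the type VIII collagen that underlies corneal and vascular endothelium. Col8a1 in fibroblasts ran from 65.5 through 252 to 548 CPM (mean 265 ± 179, n = 8; log2 fold change 5.05 ± 0.34) and lay above every neuronal library (34.8 ± 7.04 CPM). Col8a2 in ependymal cells, the ciliated lining of the ventricle, ran from 68.1 through 153 to 227 CPM (mean 138 ± 56.6, n = 9; 6.40 ± 0.28). Its fibroblast level was 44.6 ± 37.2 CPM, with 2 of 8 libraries at 0.

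The beaded-filament chains Col6a1 and Col6a2, which form the pericellular microfibrils of connective tissue, had their highest mean level in fibroblasts among the types measured. Col6a1 ran there from 17.6 through 117 to 159 CPM (mean 101 ± 48.5; log2 fold change 7.70 ± 0.46) and Col6a2 from 0 through 81.3 to 114 CPM (7.43 ± 0.48). Without M4 the means were 113 ± 37.7 and 88.7 ± 18.4 CPM. Neurons were called higher for Col6a1 at only 3.80 ± 1.41 CPM (2.33 ± 0.49). There 2 of 10 libraries lay above the mean of the other types, and the call was lost in DESeq2. Col6a2 was called higher in neurons too. By number, however, neurons held 397 of 470 Col6a1 UMIs and 193 of 245 Col6a2 UMIs, against 55 and 43 in fibroblasts. The authors' cluster Neurons (4) reached 18.9 ± 7.00 unscaled CPM of Col6a1.

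The transmembrane collagens Col23a1 and Col25a1 span the cell membrane and can be shed from it. Col23a1 in fibroblasts ran from 0 through 318 to 519 CPM (log2 fold change 5.28 ± 0.33), with M4 at 0 and a mean of 316 ± 129 CPM without it (n = 7). Col25a1, a neuronal protein that was first found in amyloid plaques and acts in motor axon innervation, ran in neurons from 414 through 691 to 896 CPM (mean 680.1 ± 140, n = 10; 3.17 ± 0.19). In fibroblasts it ran from 264 through 1115 to 2140.0 CPM (mean 1141 ± 593, n = 8; 4.05 ± 0.25). The fibroblast and neuron libraries overlapped, and the difference was 0.77 ± 0.30 on the log2 scale (adjusted p = 0.028).

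Col26a1, an extracellular collagen known from the reproductive tract, was highest in ependymal cells, from 39.9 through 107 to 359 CPM (mean 128 ± 97.2, n = 9; log2 fold change 3.02 ± 0.22). It was also higher in neurons at 66.9 ± 12.5 CPM (2.11 ± 0.16, 9 of 10 libraries above the other types). Its ependymal and fibroblast levels (82.8 ± 46.0 CPM) overlapped, with a difference of 0.34 ± 0.34 (adjusted p = 0.478).

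The 19 genes that did not pass the filter stayed at 78.6 CPM or below in every type. Among these, Col13a1, a membrane collagen of neuromuscular junctions, was highest in fibroblasts at 78.6 CPM, and Col6a3, the long chain of type VI collagen, at 32.7 CPM. Col16a1 was highest in OPCs at 30.2 CPM, Col4a3 in endothelial cells at 29.1 CPM and Col19a1, a collagen of inhibitory synapses, in neurons at 9.93 CPM.

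The fibroblast type held nuclei that differed in their collagen genes. Each of its 179 nuclei was placed by the markers with most UMIs: 62 were led by Bnc2, 59 by Dcn, Slc6a13 or Ranbp3l, 35 by mural markers, and 23 were not placed. This split was chosen after its values had been seen, and no test is given. Col25a1 had 577 of its 631 fibroblast UMIs (91.4%) in the Bnc2 nuclei, a pooled level of 2769 unscaled CPM against 49.6 in the Dcn, Slc6a13 or Ranbp3l nuclei, and 65 of the 179 nuclei held a UMI. Col8a1 had 110 of 148 UMIs in the Bnc2 nuclei.

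The opposite split held for a group of basement-membrane and membrane collagens. Of the fibroblast UMIs, 105 of 114 for Col4a5, 102 of 114 for Col4a6, 47 of 51 for Col13a1, 41 of 46 for Col15a1 and 43 of 52 for Col26a1 lay in the Dcn, Slc6a13 or Ranbp3l nuclei. The direction was the same in all 5 libraries with at least 5 nuclei of both kinds: Col25a1 and Col8a1 were higher in the Bnc2 nuclei, and these 5 genes, with Col1a1 and Col4a1, in the other kind. In those 5 libraries Col25a1 ran from 1762 to 3415 unscaled CPM in the Bnc2 nuclei and from 0 to 358 in the other kind. Col12a1 was shared, with 81 and 65 of 153 UMIs, and so was Col23a1, with 93 and 68 of 167.

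In the mural nuclei the pooled level was 110.1 unscaled CPM for Col1a2 and 44.1 for Col12a1. It was 220.3 for Col4a1, against 182 in the Dcn, Slc6a13 or Ranbp3l nuclei, 253 for Col8a1 and 341 for Col25a1, the last from 3 libraries. Col23a1 had 0 of their 90799 UMIs, which allows up to 33.0 unscaled CPM from counting error alone. When mural and unplaced nuclei were left out of the fibroblast and endothelial sums, 18 collagen genes were again called higher in fibroblasts.

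**Figure D4:**
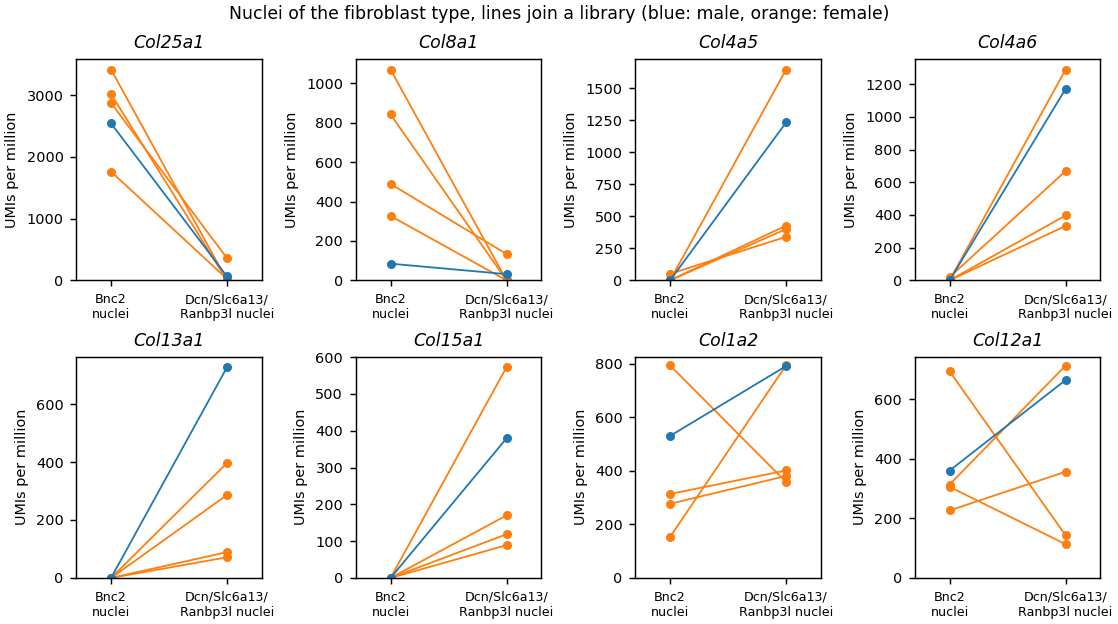
Level in unscaled CPM of 8 collagen genes in the fibroblast nuclei led by Bnc2 and in those led by Dcn, Slc6a13 or Ranbp3l, with 1 line for each of the 5 libraries that held at least 5 nuclei of both kinds. All 5 lines fall for Col25a1 and Col8a1 and rise for Col4a5, Col4a6, Col13a1 and Col15a1, whereas those of Col1a2 and Col12a1 go both ways.

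Low levels of the neuronal collagens in other types were set beside neuron markers in those types. The summed level of 4 neuron markers (Rbfox3, Snap25, Syt1, Meg3) in the other types was 6.14% to 19.5% of that in neurons. Most of this sum was Meg3 (11890 of 14647 unscaled CPM in neurons). Snap25 alone was at 164 to 298 unscaled CPM in the other types and 817 in neurons, so the range depends on the marker. Col25a1 in the types other than fibroblasts and neurons lay at 8.73% to 24.5% of its neuronal level, whereas in fibroblasts it lay at 240.3%. The part of neuronal RNA in these levels was not tested. For Col26a1 the fibroblast level was 224%, the ependymal level 222%, the OPC level 63.3% and the endothelial level 26.9% of that in neurons, against 5.34% in oligodendrocytes. After each nucleus was thinned to 2000 UMIs, 40.2% ± 4.70 (SD, n = 10) of neurons held a Col25a1 UMI (60.6% unthinned), against 6.47% ± 4.43 of oligodendrocytes (8.82% unthinned), with median depths of 11304 and 2759 UMIs among the nuclei kept. Thinning left out 2932 nuclei.

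Neurons were then compared by regional marker. The study used C1ql3 among the markers of the PVT and Adarb2 for the mediodorsal thalamus. Nwd2 and Gad2, a gene of inhibitory neurons, were added here with no region taken from the study, so the groups are called by their genes. Each of 10307 neurons with over 1000 genes was placed by whichever of these 4 genes led, if it had at least 2 UMIs and at least 2 times the scaled value of the next. The C1ql3-high group held 3894 nuclei, Adarb2-high 1827, Nwd2-high 917 and Gad2-high 311 (8 libraries), while 3358 were not placed. No collagen gene entered the split. The Gad2-high group was mixed, since 52.7% of it lay in the deposited clusters Neurons (1), (2) and (4), which held 3699 of the 3894 C1ql3-high nuclei, and only 4.56% of all genes differed between the C1ql3-high and Gad2-high groups.

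Of the collagen genes, 13 passed the filter in neurons, and the Adarb2-high group had the most called higher. There 9 of 13 were called higher than in the mean of the other groups, beside 13.1% of all genes. The Nwd2-high group had 4 higher (20.5% of all genes) and 7 lower (19.6%), the Gad2-high group 3 higher (7.82%) and 1 lower (3.66%), and the C1ql3-high group 2 higher (10.3%) and 5 lower (6.94%). The highest group differed from the second in 7 of the 13 genes. These 2 groups were picked by the same levels, and between pairs of groups 4.56% to 59.2% of all genes differed. Since a gene can pass the filter through the group in which it is high, all these counts describe the groups.

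Col12a1 was higher in the C1ql3-high neurons. In the C1ql3-high group it ran from 29.5 through 59.2 to 93.3 CPM (mean 63.4 ± 21.4, n = 10), against 13.0 ± 9.99 CPM in the Adarb2-high, 13.7 ± 12.5 in the Gad2-high and 4.28 ± 7.38 in the Nwd2-high group. Its log2 fold change was 2.66 ± 0.20 (adjusted p = 1.55e-11), and all 10 libraries exceeded the mean of the other groups, although the lowest lay below the highest Gad2-high library (32.4 CPM). In the deposited clusters Col12a1 was at 103 ± 32.4 unscaled CPM in Neurons (1) but at 13.4 ± 5.75 and 5.51 ± 4.03 in Neurons (2) and Neurons (4), whose placed nuclei were also mostly C1ql3-high. The second highest cluster was Neurons (8), at 34.2 ± 16.9, which held 287 Adarb2-high and 83 C1ql3-high nuclei. Col9a3 was the other gene called higher in the C1ql3-high group (15.0 ± 4.12 CPM, 0.86 ± 0.15), at a level shared with the Adarb2-high group (15.2 ± 5.19 CPM, 0.97 ± 0.16).

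Col26a1 was the collagen that most set apart the Adarb2-high neurons. It ran there from 129 through 145 to 179 CPM (mean 149.7 ± 15.1, n = 10; log2 fold change 3.24 ± 0.12), and no library overlapped the next group, Gad2-high (25.0 ± 19.7 CPM). Col16a1, a fibril-associated collagen, ran from 33.8 through 52.5 to 87.4 CPM (2.16 ± 0.25) and exceeded the Nwd2-high group (38.2 ± 27.1 CPM) by 1.07 ± 0.31 on the log2 scale (adjusted p = 0.00476). In the deposited clusters, however, the Col16a1 means were close, at 58.5 ± 13.6 unscaled CPM in Neurons (3), mostly Adarb2-high, and 59.7 ± 46.5 in Neurons (6), mostly Nwd2-high, which were not tested against each other.

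Further genes were higher in the Adarb2-high group by smaller amounts. Col8a1 lay at 41.5 ± 9.86 CPM (log2 fold change 1.81 ± 0.16), Col15a1 at 11.9 ± 5.95 CPM (1.64 ± 0.20) and Col18a1 at 62.1 to 103 CPM (1.00 ± 0.12), the last without overlap with the next group (39.5 ± 17.7 CPM). In the deposited clusters Col18a1 was highest in Neurons (3), at 101 unscaled CPM with 1026 Adarb2-high nuclei, followed by 79.6 in the mostly C1ql3-high Neurons (4), and it was lowest in Neurons (7), at 11.4 with 375 Adarb2-high nuclei. The basement membrane pair was also higher, Col4a1 at 40.5 ± 12.7 CPM (0.98 ± 0.13) and Col4a2 at 50.5 ± 9.73 CPM (0.60 ± 0.10). In these neurons the summed mural markers were at 8.75 to 30.8 unscaled CPM and the endothelial markers at 0 to 7.79. These ranges were not higher than those of the other groups. Over all neurons, however, most of the mural sum was Notch3, with 3339 UMIs. Abcc9 had 152, Pdgfrb 127, Vtn 73, Rgs5 29 and Kcnj8 7. The part of vascular RNA in these Col4a1 and Col4a2 levels was not tested.

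**Figure D5:**
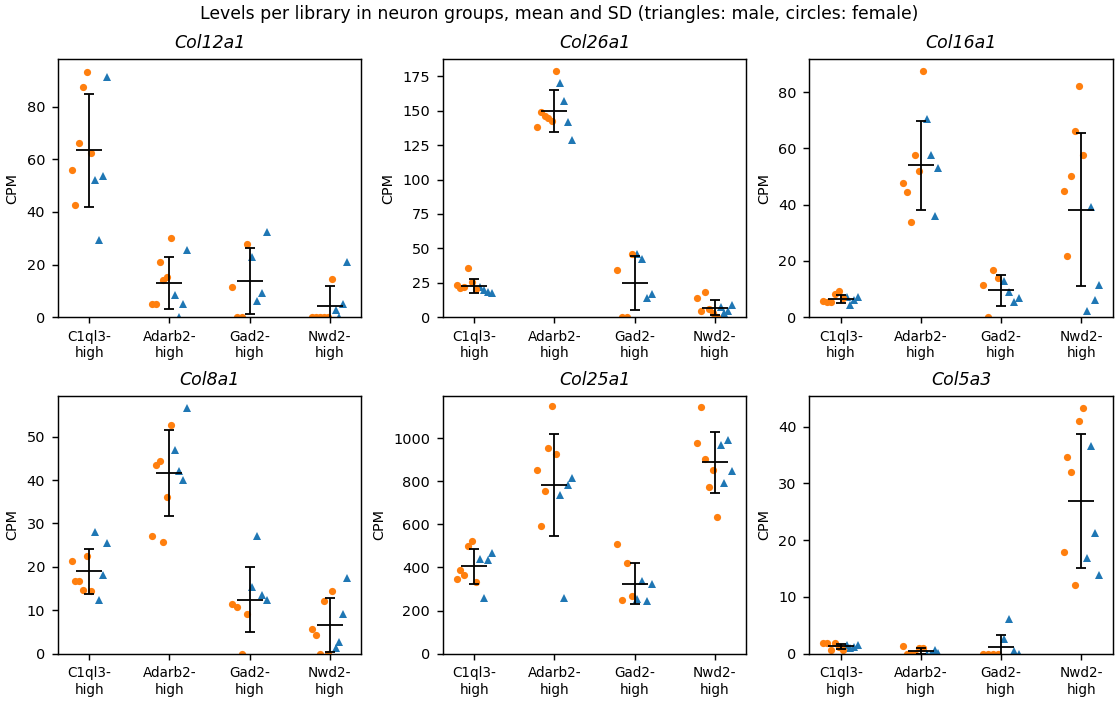
Level in CPM (linear axis) of Col12a1, Col26a1, Col16a1, Col8a1, Col25a1 and Col5a3 in the 4 neuron groups. Each point is the sum of 1 library and each bar the mean with SD. Col12a1 is highest in the C1ql3-high group (mean 63.4 CPM), Col26a1 in the Adarb2-high group (149.7 CPM) and Col5a3 in the Nwd2-high group (27.0 CPM).

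Nwd2-high neurons shared Col25a1 with the Adarb2-high group and had Col5a3 to themselves among these groups. Col5a3 ran from 12.1 through 26.6 to 43.3 CPM (mean 27.0 ± 11.8, n = 10; log2 fold change 4.74 ± 0.26), above every library of the C1ql3-high group, the next highest. Col25a1 was at 888 ± 142 CPM in Nwd2-high (0.98 ± 0.13) and 782 ± 237 CPM in Adarb2-high neurons (0.65 ± 0.13), which differed by 0.25 ± 0.16 (adjusted p = 0.169), and at 406 ± 81.9 CPM in C1ql3-high and 325 ± 94.9 CPM in Gad2-high neurons.

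The remaining calls concerned the Nwd2-high and Gad2-high groups, and how far mixed nuclei account for them was not tested. Col19a1 was called higher in Nwd2-high neurons (9.80 ± 6.44 CPM, 0.73 ± 0.26, adjusted p = 0.0142). However, 101 of those 917 nuclei lay in the deposited cluster Neurons (5), where Col19a1 was at 39.6 unscaled CPM, while it was at 1.22 in Neurons (6), which held 797 of them. With only the nuclei of deposited clusters matched to their group, the log2 fold change of Col19a1 in Nwd2-high neurons turned to -2.60. Col11a1 was called higher in Nwd2-high (17.3 ± 12.3 CPM, 0.93 ± 0.31) and Gad2-high neurons (23.3 ± 14.8 CPM, 1.60 ± 0.35). It was at 65.1 unscaled CPM in Neurons (5), which held 123 of the 311 Gad2-high nuclei, and at 15.3 or below in every other neuron cluster, with 14.1 in Neurons (6). In the Gad2-high group Col15a1 (8.49 ± 8.08 CPM, 1.19 ± 0.30) had 3 of 8 libraries at 0, and Col4a2 lay at 46.5 ± 24.6 CPM (0.55 ± 0.15, adjusted p = 0.00501).

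The deposited neuron clusters, given here in unscaled CPM, showed wider ranges than the marker groups. Col25a1 ran from 22.5 in Neurons (4) to 1036 ± 165 in Neurons (6), and Col12a1 from 4.04 in Neurons (3) to 103 ± 32.4 in Neurons (1). Col8a1 was highest in Neurons (7), at 86.8 ± 14.1, and lowest in Neurons (4), at 1.36. Neurons (4), whose placed nuclei were mostly C1ql3-high (622 nuclei), had the highest Col6a1 level (18.9 ± 7.00, next 5.80 ± 6.65), and Neurons (5) the highest Col11a1 (65.1 ± 29.6, next 15.3 ± 8.05) and Col9a2 (13.2 ± 4.24). Because these clusters were built from the same counts, the ranges are a description.

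A list of 96 genes that make, modify, bind or degrade collagen was read in the same fits, and 62 passed the filter across cell types. In fibroblasts 32 of the 62 were higher and 4 lower, in endothelial cells 27 and 11, in astrocytes 21 and 19, in neurons 21 and 25, in OPCs 17 and 16, in ependymal cells 14 and 14, in microglia 14 and 33, and in oligodendrocytes 8 and 34. The share called higher was 51.6% in fibroblasts (10.7% of all genes), 43.5% in endothelial cells (17.4%), 33.9% in astrocytes (21.5%) and 27.4% in OPCs (20%). It was near the share of all genes in neurons (33.9%, beside 34.8%), microglia (22.6%, beside 21.3%) and ependymal cells (22.6%, beside 26.7%), and below it in oligodendrocytes (12.9%, beside 20.5%). Of all genes, 11.4% were lower in fibroblasts, 22.8% in endothelial cells, 19.7% in astrocytes, 23.4% in neurons, 13.3% in OPCs, 19.1% in ependymal cells, 29% in microglia and 26.2% in oligodendrocytes. The fibril partners, proteins that coat or link fibres, were higher in fibroblasts in 8 of 8 cases. They included Dcn (810.3 ± 787 CPM, log2 fold change 9.74 ± 0.29), which is also one of the fibroblast markers, and Bgn (99.4 ± 61.2 CPM, 7.43 ± 0.37), small proteoglycans that bind collagen fibres. Of 14 basement membrane partners, 9 were higher in fibroblasts, led by Lama1 (386 ± 261 CPM, 6.87 ± 0.31) and Nid1 (139 ± 43.3 CPM, 6.86 ± 0.36), and 11 in endothelial cells.

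Of 8 collagen receptors and uptake genes past the filter, 4 were higher in fibroblasts, 4 in endothelial cells, 3 each in astrocytes, ependymal cells and microglia, and 1 each in neurons, OPCs and oligodendrocytes. In neurons 7 of the 8 were lower, in oligodendrocytes 5, in ependymal cells 4 and in endothelial cells and microglia 3 each. In OPCs 2 were lower, and in fibroblasts and astrocytes 1 each. The shares of all genes are those given above. Itga1, an integrin chain that binds type IV collagen, was higher in endothelial cells (510.2 ± 166 CPM, log2 fold change 6.94 ± 0.21), as was the matrix protein Fn1 (381 ± 129 CPM, 7.24 ± 0.26). Bgn and Dcn were also called there (52.0 ± 31.9 and 72.0 ± 114 CPM), Dcn with 2 of 7 libraries above the other types. Lair1, an inhibitory collagen receptor of immune cells, was higher in microglia (612 ± 121 CPM, 6.41 ± 0.15), together with the endocytic collagen receptor Mrc2 (83.9 ± 30.4 CPM), the prolyl hydroxylase P3h2 (445 ± 104 CPM, 5.13 ± 0.16) and Npnt (80.9 ± 30.0 CPM). The receptor kinase Ddr1 was higher in ependymal cells (468 ± 151 CPM, 2.91 ± 0.12) and oligodendrocytes (367 ± 87.4 CPM, 2.55 ± 0.11).

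Among all listed genes, whatever their role, others with the largest fold changes in the remaining types follow. In ependymal cells Npnt (107 ± 34.6 CPM), the collagen-binding integrin chain Itga11 (75.3 ± 59.9 CPM) and the collagen chaperone Serpinh1 (106 ± 52.0 CPM) were higher. In OPCs the membrane-type protease Mmp16 stood at 1200 ± 197 CPM (3.74 ± 0.15), with Mmp15 (122 ± 51.6 CPM), the procollagen protease Adamts3 (54.4 ± 21.1 CPM) and the laminin chain Lama4 (87.4 ± 30.7 CPM) also higher. In astrocytes the leading genes were Fbln5 (171 ± 65.3 CPM, 4.05 ± 0.14), Mmp14 (144 ± 31.1 CPM), Lama2 (671 ± 158 CPM) and Pcolce2 (178 ± 40.6 CPM). In oligodendrocytes they were Efemp1 (54.8 ± 14.1 CPM), Adamts2 (88.5 ± 60.9 CPM) and P3h4 (66.3 ± 22.8 CPM). In neurons they were Tll1 (99.4 ± 27.4 CPM, 3.00 ± 0.17), Mmp24 (58.7 ± 9.14 CPM), Lama3 (44.5 ± 13.0 CPM) and Timp4 (118 ± 45.3 CPM).

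Between neuron groups, 53 of the 96 genes passed the filter. Of these, 15 were higher in Adarb2-high neurons, 14 in Nwd2-high, 12 in C1ql3-high and 10 in Gad2-high neurons, while 10, 20, 9 and 4 were lower. Of all genes, 13.1%, 20.5%, 10.3% and 7.82% were higher in these groups and 14%, 19.6%, 6.94% and 3.66% lower, beside 28.3%, 26.4%, 22.6% and 18.9% of the 53 higher. Nwd2-high neurons were set apart by Lamc3, a laminin chain (118 ± 56.0 CPM, log2 fold change 7.40 ± 0.19), and Colgalt2, which adds sugar to collagen hydroxylysines (108 ± 32.9 CPM, 4.25 ± 0.11), with Lama4 (26.3 ± 15.8 CPM) and Lama1 (34.8 ± 15.3 CPM). Adarb2-high neurons had the elastic fibre genes Eln (38.5 ± 13.6 CPM, 3.93 ± 0.16) and Fbln5 (40.5 ± 8.30 CPM, 3.14 ± 0.16), with Tll1 (125 ± 33.5 CPM) and Tnc (12.6 ± 4.38 CPM). C1ql3-high neurons had Lama3 (51.8 ± 10.3 CPM, 2.24 ± 0.14), Fbln1 (85.0 ± 14.6 CPM), Timp4 (125 ± 39.6 CPM) and Adamts2 (19.6 ± 6.64 CPM). Lama3 was also higher in Gad2-high neurons (39.2 ± 27.0 CPM, 2.11 ± 0.21), with Lamb1 (25.0 ± 8.96 CPM), Tnxb (9.83 ± 8.43 CPM) and Fbn1 (30.8 ± 18.4 CPM).

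The collagen differences between types were also compared between the female libraries and the set recorded as male. In an edgeR interaction fit, 0 of 200 gene and type effects, and 0 of 52 gene and neuron group effects, had an adjusted p under 0.05. At an unadjusted p under 0.05 there were 11 and 9, and the share of all genes under that limit was not computed. Over all genes 0.561% and 0.165% of effects had an adjusted p under 0.05. For Col1a1, Col3a1, Col4a6, Col5a3, Col6a1, Col6a2, Col8a2 and Col9a1 the fit across cell types could not give a call. Their p-values lay near the maximum in every type, however large the effect. The log2 difference of Col1a1 in endothelial cells, for example, was 7.03. Col15a1 had such p-values in every type but endothelial and ependymal cells. The 0 of 200 therefore says nothing about the genes listed, or about Col15a1 outside those 2 types. The sets also differed in depth (5119927 to 12891409 UMIs per female library and 7568267 to 55956635 in the other set), so sex and depth cannot be told apart.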

How the data were processed

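Nuclei from punches of the paraventricular thalamus were sequenced with 10x Genomics 3′ chemistry. The authors deposited UMI counts per gene and nucleus, with the library and cluster of each nucleus. Per the labels' processing notes they were made with Cell Ranger 6.1.1 on mm10, with the annotation and the treatment of introns not stated. The authors had removed nuclei of poor quality and clusters called doublets before deposit, and no further caller was run here. The deposited columns of 22 other measures per nucleus were not used.

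The counts were summed per library and authors' cell type, or per library and neuron group, with at least 10 nuclei a sum. Each class was compared with the mean of the others in edgeR 4.0.16 (R 4.3.3), with TMM scaling, its default filter on low counts, a robust quasi-likelihood fit and the library as a block. Calls needed a Benjamini-Hochberg adjusted p under 0.05 over all genes tested (9842 across types, 11854 across neuron groups) and an absolute log2 fold change over 0.5. Each type and its libraries share pooled animals, which is why the replicate block belongs to the design. Fitted fold changes of genes near 0 depend on the prior count. Levels depend on depth: a sum of few nuclei, such as those of fibroblasts, carries wide counting error. The scripts were tested on simulated data. Descriptions used Python 3.11.15, numpy 2.4.6, scipy 1.17.1 and matplotlib 3.10.9. Loci came from GENCODE M21, where 28 of the 44 genes overlap another gene, 5 of them a protein-coding one.

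Named genes were the up to 5 collagen genes with the largest log2 fold change among those called higher in each type, every collagen gene called higher in a neuron group, Col12a1, Col4a1 and Col4a2, and up to 4 partner genes per class. Others, and the split of fibroblast nuclei, were named after their values were seen. The members, lists and markers were chosen with earlier results of these data known. Alternatives were DESeq2 1.42.0, other size factors, no filter, no block, other minimums of nuclei and marker UMIs, nuclei below the 95th percentile of depth, each set of libraries alone and each library left out. Added after the data were seen were the matching deposited clusters only, and fibroblast and endothelial sums without mural and unplaced nuclei. A cluster was matched to the group that had the largest share of its own nuclei in that cluster. By this rule Neurons (4) was matched to the Gad2-high group (76 nuclei), although 622 of its nuclei were C1ql3-high and were left out.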

Additional observations from a re-analysis of the deposited data

Results flagged for a closer look

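Among 54 levels of named collagen genes in a cell type or neuron group, 7 had 1 library far from the rest by Dixon's test, which chance gives in about 1 in 20 groups. In endothelial cells, library F6 was highest for Col3a1 (38.3 CPM) and Col4a5 (140.4 CPM). In ependymal cells, M1 was highest for Col5a3 (322 CPM) and Col26a1 (359 CPM), and in microglia it was highest for Col15a1 (92.9 CPM). In fibroblasts, F1 was highest for Col3a1 (215 CPM), and M4, whose sum held 3 nuclei led by fibroblast markers, was lowest for Col6a2 (0 CPM).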

How the results depend on the processing

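The count of 68 collagen calls across cell types became 106 without the filter on low counts, and that of 18 calls across neuron groups became 34, since more genes were then tested. The share of neurons with a Col25a1 UMI was 60.6% without thinning and 40.2% with it. The log2 fold change of Col19a1 in Nwd2-high neurons turned to -0.079 in the 6 female libraries alone (adjusted p = 0.926) and to -2.60 in the matching deposited clusters (adjusted p = 8.09e-07). The log2 fold change of Fbn1 in Gad2-high neurons turned to -0.20 in the 6 female libraries (adjusted p = 0.916). The cause was not tested. Without the replicate block, the counts were 66 collagen calls and 149 partner calls across types, 18 in fibroblasts, 20 genes whose highest type differed from the second, and 17 collagen and 46 partner calls across neuron groups. With each library left out in turn these counts ran from 55 to 70, 141 to 158, 14 to 20, 14 to 21, 18 to 19 and 45 to 54. The 14 fibroblast calls came without F2 and without M2, where 21 and 19 collagen genes passed the filter. Of the 68 calls, 50 to 68 were kept across 20 settings, and of the 18 calls across neuron groups, 12 to 18 across 23 settings. Of 54 effects of named collagen genes, 43 kept their call in every alternative that gave them a value, some in fewer of these (Col1a1 in fibroblasts in 14). Col12a1 in C1ql3-high neurons kept its call throughout, with log2 fold changes from 2.15 to 3.73. The setting with matching clusters left out the C1ql3-high nuclei of Neurons (4), a cluster with low Col12a1. Calls lost under at least 1 alternative included Col4a5, Col4a6 and Col3a1 in endothelial cells, Col4a2 in Gad2-high, Col25a1 in Adarb2-high and Col11a1 in Nwd2-high neurons.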
